A study of Mus musculus with 33 samples.

Results

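Endothelial cells of E9.5 mouse embryos carrying 1 added copy of Runx1 were compared with endothelial cells of the same stage without it. These data made up 8 of the 33 samples of the series, chosen by their labels as E9.5: 2 RNA-seq and 2 ATAC-seq samples of 1Runx1 and the same number of Ctrl. Cells came from whole embryos and were sorted as CD41-, CD45-, Ter119-, CD31+, VEC+ and cKIT low to positive. Both groups were on a mixed background of C57BL/6J-129Sv/J and B6C3F1, and both carried 1 conditional knock-in allele of Runx1 (CKI/+). Only 1Runx1 also carried Cre, and the effects of Cre itself and of the Runx1 copy it activates cannot be told apart. The labels do not name the promoter that drives Cre. Females were superovulated with 5 IU of gonadotrophins 48 hours before mating and again at mating, and all received 2 mg tamoxifen 24 hours before harvest. The sources used here do not say whether the samples of a group came from separate litters, and each p-value then reflects no more than the spread among the samples at hand, which may be technical.

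RUNX1 is a DNA-binding transcription factor that works as a dimer with CBFβ and recognises a short motif with the core TGTGGT. In the embryo it is required when hemogenic endothelium, a specialised part of the vessel wall, gives rise to the first stem and progenitor cells of blood. During that step endothelial genes are shut down and haematopoietic genes are opened and transcribed, and the sort on CD41 and CD45 leaves out cells that have already taken on a blood surface phenotype. The series asks how RUNX1 changes transcription and chromatin in endothelium at different stages.

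RNA levels were the authors' normalised RPKM (reads scaled to transcript length and library size), in which every value was a whole multiple of 1 read. The 4 libraries held 38918863, 41796873, 44540403 and 41549667 recovered reads, and 10779 to 10876 genes reached an RPKM of at least 1 in each. The log2 difference between replicates had an SD of 0.136 in Ctrl and 0.164 in 1Runx1 over 12546 tested genes. For the sort markers shown here, levels were as labelled. The endothelial genes Pecam1 and Cdh5 were at 156 and 164 RPKM and at 112 and 108 RPKM in the Ctrl libraries. Ptprc, which encodes CD45, was listed at 0 in all 4 libraries. It was the only such gene of 20 pan-haematopoietic genes, which summed to 228 and 232 RPKM in Ctrl and 273 and 272 RPKM in 1Runx1. The sum over 18 erythroid genes was 177, 178, 173 and 84.8 RPKM in Ctrl libraries 1 and 2 and 1Runx1 libraries 1 and 2, so 1Runx1 library 2 stood apart in this list. The sum over 9 epithelial genes was 27.1, 27.6, 24.7 and 18.7 RPKM in the same order. Of the 7 epithelial genes tested, 0 were called and 3 were at an unadjusted p under 0.05, and all 7 had a negative difference (median −0.40). With limma-voom, 0 of them were called. The part of such cells in the results was not tested. Fewer cells of a type and less RNA per cell cannot be told apart in these bulk samples.

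Runx1 (ENSMUSG00000022952, chromosome 16, 92601466 to 92826074 on GRCm38) was at 0.915 and 0.904 RPKM in the Ctrl libraries and at 14.9 and 16.2 RPKM in the 1Runx1 libraries. The groups did not overlap. The RPKM table does not separate knock-in reads from those of the endogenous gene. None of the other 11 tested members of a list of RUNX family genes and partners was called, and Cbfb, which encodes the partner subunit, was at 49.3 and 52.1 RPKM in Ctrl and at 52.7 and 54.4 RPKM in 1Runx1 (limma, adjusted p = 0.695).

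Genes were tested with limma on log2(RPKM + 1), adjusted over all 12546 genes by the Benjamini-Hochberg method, and called at an adjusted p under 0.05. In 1Runx1, 108 genes (0.861%) were higher and 41 (0.327%) lower, together 149 (1.19%). At an unadjusted p under 0.05 were 1508 of the 12546 genes, and list counts at that limit are to be read against these numbers. All 149 had groups that did not overlap, which was true of 48.8% of all tested genes. The changes were mostly moderate: 28 of the higher and 4 of the lower genes differed at least 2-fold on the log2(RPKM + 1) scale, which understates changes of genes with low levels, and the median of the higher genes was 0.61 against 0.01 over all tested genes. The 4 libraries do not carry these calls equally. With 1 library left out at a time, 33 genes (30 higher and 3 lower) were called each time. The total fell to 46, 41, 89 and 52 without Ctrl library 1, Ctrl library 2, 1Runx1 library 1 and 1Runx1 library 2, and to 37 with only the E9.5 libraries in the fit.

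The list with the most members among the higher genes was that of genes known to be induced by the tumour suppressor p53, the transcription factor that halts the cell cycle or triggers apoptosis after DNA damage and other stress. Of 27 listed p53 target genes, all of them tested, 15 rose and 0 fell. The median difference of the 27 was 0.41 on the log2(RPKM + 1) scale, 25 lay above 0, and their summed level was 586 and 576 RPKM in Ctrl and 790 and 833 RPKM in 1Runx1. Several of these genes had been seen among the largest changes in earlier results of these data, so the list is not independent evidence of its direction.

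Cdkn1a (chromosome 17, 29090979 to 29100722), which encodes the cell cycle inhibitor p21, was at 8.48 and 7.59 RPKM in Ctrl and at 36.9 and 47.3 RPKM in 1Runx1. Ccng1 (chromosome 11, 40748552 to 40755309), encoding cyclin G1, was at 22.4 and 21.1 RPKM in Ctrl and at 43.1 and 63.0 RPKM in 1Runx1, a rise of 1.22 ± 0.19 (limma, adjusted p = 0.0137). In both genes the 1Runx1 libraries lay well above the Ctrl libraries, and 1Runx1 library 2 was the highest of the 4. Mdm2 (chromosome 10, 117688875 to 117710758), whose product marks p53 for degradation, was at 23.1 and 24.6 RPKM in Ctrl and at 32.9 and 40.5 RPKM in 1Runx1. It rose by 0.59 ± 0.09 (limma, adjusted p = 0.0128), a smaller step than that of Cdkn1a.

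Members of the list with roles in cell death also rose. Bax, the pore-forming BCL-2 family protein of mitochondria, was at 115 and 111 RPKM in Ctrl and at 144 and 142 RPKM in 1Runx1. Its rise of 0.33 ± 0.06 (limma, adjusted p = 0.0249) was the smallest of the 15. The BH3-only genes Bbc3 (PUMA) and Pmaip1 (NOXA), which activate BAX, rose by 0.75 ± 0.10 and 0.85 ± 0.14 (limma, adjusted p = 0.00658 and 0.0165), Bbc3 from 3.94 and 3.48 to 6.45 and 7.45 RPKM. Eda2r and Tnfrsf10b, receptors of the TNF receptor family, were at 1.39 and 1.59 and at 2.53 and 3.12 RPKM in Ctrl, and at 4.99 and 7.22 and at 4.77 and 4.22 RPKM in 1Runx1. Both receptors were higher in each 1Runx1 library than in either Ctrl library, as was every gene called higher.

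Stress-response members included Trp53inp1, which encodes a p53-inducible nuclear protein and was at 2.97 and 2.93 RPKM in Ctrl and at 8.14 and 9.63 RPKM in 1Runx1. Sesn2, encoding the stress protein sestrin 2, was at 7.67 and 8.35 RPKM in Ctrl and at 14.4 and 20.3 RPKM in 1Runx1. Phlda3, a repressor of AKT signalling, rose from 15.3 and 16.9 to 30.1 and 35.3 RPKM, by 0.98 ± 0.12 (limma, adjusted p = 0.00385). The other members that rose were Zfp365 (1.51), Zmat3 (0.65), the repair nuclease gene Ercc5 (0.45) and Ei24 (0.40). The 12 members that did not pass the test ranged from −0.11 for the repair gene Xpc to 0.41 for Aen, and Sesn1, the paralogue of Sesn2, was at 0.05 (limma, adjusted p = 0.863). Trp53 itself, which encodes p53, differed by 0.08 (limma, adjusted p = 0.753), with levels of 118 and 125 RPKM in the Ctrl libraries.

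In 13 of the 15 p53 target genes that rose, 1Runx1 library 2 was above 1Runx1 library 1, as it was in 74 of all 108 higher genes. The number that rose was 5, 5, 11 and 4 without Ctrl library 1, Ctrl library 2, 1Runx1 library 1 and 1Runx1 library 2, it was 2 with only the E9.5 libraries in the fit and 6 with no filter on low values, and the median of the list stayed between 0.35 and 0.48 in these fits. Whether Cre or the added Runx1 copy moved these genes cannot be told apart.

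**Figure D1:**
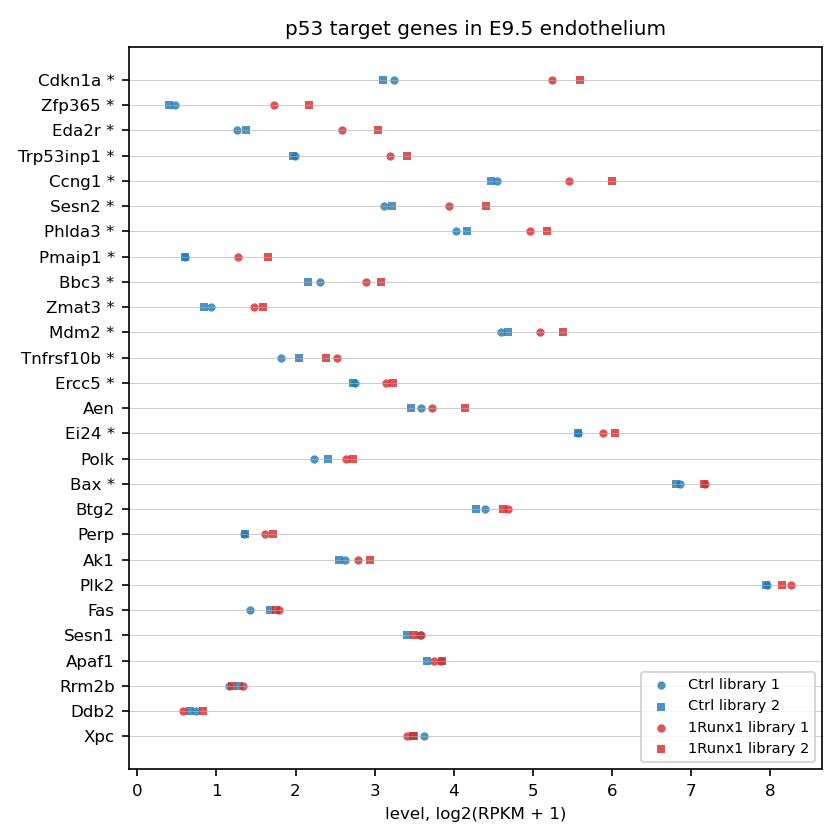
Levels of the 27 p53 target genes on the log2(RPKM + 1) scale in each E9.5 library, with Ctrl in blue, 1Runx1 in red, circles for library 1 and squares for library 2. Genes are ordered by the difference between groups, and an asterisk marks the 15 that rose. In all of these both red symbols lie to the right of both blue ones, as in every gene called higher.

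Genes of cell division did not pass the test. Of 22 DNA replication genes and 20 mitosis genes, 0 were called in each list by limma, with 2 and 0 at an unadjusted p under 0.05 and medians of −0.03 and 0.04. With limma-voom on the recovered reads, 0 genes of either list were called. Among 20 tested cyclin-dependent kinase inhibitors and G1 cyclins, Cdkn1a rose and Ccnd1 fell. Ccnd1, encoding cyclin D1, which drives entry into S phase, was at 29.6 and 30.9 RPKM in Ctrl and at 20.6 and 21.8 RPKM in 1Runx1, a fall of 0.49 ± 0.10 (limma, adjusted p = 0.044). Its groups did not overlap, as in every called gene, but the call of Ccnd1 was lost whichever E9.5 library was left out. It was also lost with no filter, with only the E9.5 libraries in the fit and with the replicate block.

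After Runx1, the largest increase was that of AI467606 (2.56 ± 0.13, limma, adjusted p = 5.08e-06). Tmem163 (1.53), Lrrc55 (1.47), Art4 (1.26) and Dcxr (1.23) were also among the largest. Other large increases belonged to lists of lipid mediator, adhesion and signalling genes, in which most members did not pass the test. Alox5 (chromosome 6, 116410071 to 116461178), encoding 5-lipoxygenase, which makes the first intermediate of the leukotrienes, was at 0.536 and 0.411 RPKM in Ctrl and at 4.38 and 4.81 RPKM in 1Runx1. Ltc4s (chromosome 11, 50236461 to 50238532), encoding the synthase of leukotriene C4, was at 1.15 and 0.759 RPKM in Ctrl and at 4.64 and 4.69 RPKM in 1Runx1. Both genes act in sequence in the same pathway, and both were several-fold higher in each 1Runx1 library than in either Ctrl library. Ptgs1, encoding cyclooxygenase 1 of prostaglandin synthesis, was the third member of 17 tested lipid mediator genes to rise, by 0.48 ± 0.10 (limma, adjusted p = 0.044), from 8.46 and 8.62 to 13.8 and 11 RPKM. The call of Ptgs1 was lost with quantile normalization, limma-voom, no filter, the replicate block, only the E9.5 libraries and 3 of the 4 leave-one-out fits (adjusted p up to 0.307). Alox5ap, whose product presents arachidonic acid to 5-lipoxygenase, was at 3.40 and 3.14 RPKM in Ctrl and at 6.34 and 6.53 RPKM in 1Runx1 and did not pass the test (0.80 ± 0.17, limma, adjusted p = 0.0615). The median of the list was 0.00, and 0 of its members fell.

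Itgb3, integrin β3, was at 1.19 and 0.938 RPKM in Ctrl and at 7.69 and 7.71 RPKM in 1Runx1, and it was the only called gene of 15 tested integrin subunits (list median 0.01). Npnt, encoding nephronectin, an extracellular matrix ligand of integrins, rose from 2.68 and 2.92 to 6.82 and 7.12 RPKM, by 1.07 ± 0.10 (limma, adjusted p = 0.000603). Lgals9 (chromosome 11, 78962979 to 78984924), encoding the sugar-binding protein galectin-9, was at 1.91 and 1.87 RPKM in Ctrl and at 11.7 and 11.2 RPKM in 1Runx1, while 0 of the other 5 tested galectin genes were called. Stat4, a transcription factor of cytokine signalling, was at 0.443 and 0.260 RPKM in Ctrl and at 4.11 and 4.33 RPKM in 1Runx1, and it was the only called gene of 18 tested STAT, JAK and SOCS genes. In each of these genes the libraries of a group lay close together and the groups far apart, and Itgb3, Npnt, Lgals9 and Stat4 were called with each of the 4 libraries left out.

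Several of the higher genes encode signalling proteins best known from blood cells. Fcgr3, an IgG receptor, was at 1.1 and 1.25 RPKM in Ctrl and at 4.69 and 4.25 RPKM in 1Runx1, and Fcer1g, the common γ chain with which Fc receptors signal, was at 1.64 and 1.45 RPKM in Ctrl and at 4.29 and 4.46 RPKM in 1Runx1. They were the 2 called genes of 9 tested Fc receptor and adaptor genes, of which 4 were tested with a filter on the E9.5 libraries alone. Fcgr3 rose by 1.33 ± 0.11 and Fcer1g by 1.08 ± 0.20 (limma, adjusted p = 0.000315 and 0.027). Fcer1g did not pass with limma-voom on the recovered reads (adjusted p = 0.274). With no filter on low values, 1 gene of the list was called. The adaptor genes Lcp2 (SLP-76) and Dok2 rose by 0.83 ± 0.10 and 1.08 ± 0.14 (limma, adjusted p = 0.00326 and 0.00583), Lcp2 from 1.07 and 1.08 to 2.52 and 2.86 RPKM and Dok2 from 0.499 and 0.345 to 2.16 and 1.85 RPKM. Plcg2, a phospholipase downstream of such adaptors, rose from 6.31 and 6.63 to 13.6 and 16.2 RPKM, by 1.08 ± 0.11, and Def6, a guanine nucleotide exchange factor of immune cells, from 4.42 and 4.12 to 9.68 and 10.7 RPKM, by 1.09 ± 0.10 (limma, adjusted p = 0.000628 and 0.000315). In all 6 genes each 1Runx1 library lay above both Ctrl libraries, as in every gene called higher.

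Macrophage, neutrophil and mast cell markers were low in both groups. Of 20 macrophage genes, Fcgr3 and Lyz2 were called. With limma-voom, with no filter and with only the E9.5 libraries in the fit, 1 gene of the list was called. The summed level was 4.54 and 4.64 RPKM in Ctrl and 7.61 and 8.05 RPKM in 1Runx1, and the difference was about that of Fcgr3 itself. The macrophage genes Adgre1, Cd163, Fcgr1 and Trem2 were listed at 0 in all 4 libraries, and Csf1r was between 0.215 and 0.335 RPKM. The 13 neutrophil and mast cell genes summed to between 1.51 and 2.00 RPKM. The 22 megakaryocyte and platelet genes summed to between 118 and 120.2 RPKM, of which Clec1b made up 102 to 105 RPKM. Of 6 tested genes of the first list and 12 of the second, 0 were called by limma, with 0 at an unadjusted p under 0.05 in each list and 0 called with limma-voom. With a filter on the E9.5 libraries alone, 1 and 5 genes of these lists were tested, so the test says little about the others. Of 16 tested pan-haematopoietic genes, Lcp2 and Dok2 rose and 0 fell, 7 were at an unadjusted p under 0.05 and 12 lay above 0, with a list median of 0.15. Their summed level with the untested members was 228 and 232 RPKM in Ctrl and 273 and 272 RPKM in 1Runx1. The call of Dok2 was lost without Ctrl library 2 or 1Runx1 library 1 (adjusted p = 0.0878 and 0.0507). The part of such cells in the results was not tested beyond these values.

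Regulators of the hemogenic programme did not pass the test. Of 22 tested hemogenic and stem-cell regulators, 0 were called by limma and 0 with limma-voom. At an unadjusted p under 0.05 were 8 of the 22, against 1508 of all 12546 tested genes. Gata2, a zinc finger factor that stem cells of the blood require, was at 21.0 and 22.4 RPKM in Ctrl and 28.1 and 28.5 RPKM in 1Runx1 (0.37 ± 0.09, limma, adjusted p = 0.0993). Gfi1, a repressor of endothelial genes that RUNX1 is known to induce, was below the filter, at 0.291 and 0.286 RPKM in Ctrl and 0.475 and 0.740 RPKM in 1Runx1. Spi1, encoding the myeloid factor PU.1, lay between 0.209 and 0.436 RPKM with overlapping groups. Kit, the receptor used in the sort, was at 30.9 and 31.1 RPKM in Ctrl and at 26.7 and 25.3 RPKM in 1Runx1 and did not pass the test either (limma, adjusted p = 0.515).

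Of 30 endothelial identity genes, 27 did not pass the test, and the list median was −0.06. Tek, the angiopoietin receptor, was at 154 and 152 RPKM in Ctrl and at 116 and 123 RPKM in 1Runx1, and Clec14a, an endothelial C-type lectin, at 50.8 and 51.9 and at 42.0 and 41.9 RPKM. Tek fell by 0.36 ± 0.06 and Clec14a by 0.28 ± 0.05 (limma, adjusted p = 0.0231 and 0.0169). Sox7, an endothelial transcription factor, rose from 83.4 and 86.1 to 98.4 and 101 RPKM, by 0.23 ± 0.04 (limma, adjusted p = 0.0228). All 3 calls were lost whichever of the 4 E9.5 libraries was left out, with adjusted p from 0.0656 to 0.269. The 17 arterial genes had a median of −0.19 with Jag2, a Notch ligand, the single called member and higher (0.48), a call that was lost whichever E9.5 library was left out (adjusted p from 0.0783 to 0.266) and with a pseudocount of 0.1, no filter or only the E9.5 libraries. The 8 venous genes had a median of −0.20 with Tek the single called member. Of these 8 genes 0 lay above 0, and of the 17 arterial genes 2 did. At an unadjusted p under 0.05 were 2 venous and 6 arterial genes.

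Few members of the signalling lists passed the test. Of 22 NF-κB subunits and feedback genes, the inhibitor genes Nfkbia and Nfkbie rose and the receptor gene Tlr2 fell. Nfkbia was at 30.9 and 30.3 RPKM in Ctrl and at 45.2 and 42.7 RPKM in 1Runx1, and Nfkbie at 3.12 and 3.06 and at 5.94 and 5.52 RPKM. They rose by 0.51 ± 0.06 and 0.72 ± 0.09 (limma, adjusted p = 0.00215 and 0.00385). The list median was 0.17, 16 of the 22 genes lay above 0, and 10 were at an unadjusted p under 0.05. Of 27 tested TGFβ target genes, Cdkn1a was the single one called, and of 22 tested TGFβ pathway components 0 were called, with 3 at an unadjusted p under 0.05 and 0 called with limma-voom. Atoh8 rose among 12 BMP targets (0.66), Ier3 among 20 immediate early genes (0.64), and Egln3, a hypoxia-induced prolyl hydroxylase, among 25 glycolysis and hypoxia genes (0.62). The call of Ier3 was lost with limma-voom, no filter, only the E9.5 libraries and 3 of the 4 leave-one-out fits (adjusted p up to 0.206), and that of Atoh8 with only the E9.5 libraries and 3 of the 4 (up to 0.109). The call of Tlr2 was lost in all 4 (adjusted p from 0.0911 to 0.206), and that of Nfkbie without Ctrl library 2 (0.0541). The immediate early list had a median of 0.30 and 10 members at an unadjusted p under 0.05. Of the 25 glycolysis and hypoxia genes, 23 lay above 0 (median 0.10) and 7 were at an unadjusted p under 0.05. With limma-voom, 3 of these 25 were called higher.

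The decreases were fewer and mostly small. Ttc39c fell most among protein-coding genes with a stable call, from 2.97 and 3.07 RPKM in Ctrl to 0.774 and 0.777 RPKM in 1Runx1, by 1.18 ± 0.10 (limma, adjusted p = 0.000328). Dapk2, a death-associated kinase, was at 5.46 and 5.46 RPKM in Ctrl and at 3.17 and 3.18 RPKM in 1Runx1. The interferon-inducible guanylate-binding protein genes Gbp4 and Gbp9, neighbours on chromosome 5, were at 3.33 and 2.43 and at 1.98 and 2.57 RPKM in Ctrl and at 1.39 and 1.19 and at 1.23 and 0.996 RPKM in 1Runx1. Both Gbp genes fell, by 0.75 ± 0.13 and 0.63 ± 0.11 (limma, adjusted p = 0.0249 and 0.0199). They belong to a multigene family, so reads may be shared. Of 24 tested interferon-stimulated genes Gbp4 was the only one called. With a filter on the E9.5 libraries alone 9 of the list were tested, so the test says little about the others. Corin, the protease that activates atrial natriuretic peptide, fell from 1.58 and 1.55 to 0.647 and 0.597 RPKM, and Rarres2, which encodes chemerin, from 2.32 and 1.89 to 1.11 and 0.805 RPKM. Of these 6 genes, Ttc39c and Dapk2 were called with each of the 4 libraries left out. Among small RNA genes, Mir7655 was called higher, and Snora30, Mir1931 and Mir181b-2 lower, at levels of at most 8.02 RPKM, and their reads may belong to overlapping transcripts.

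**Figure D2:**
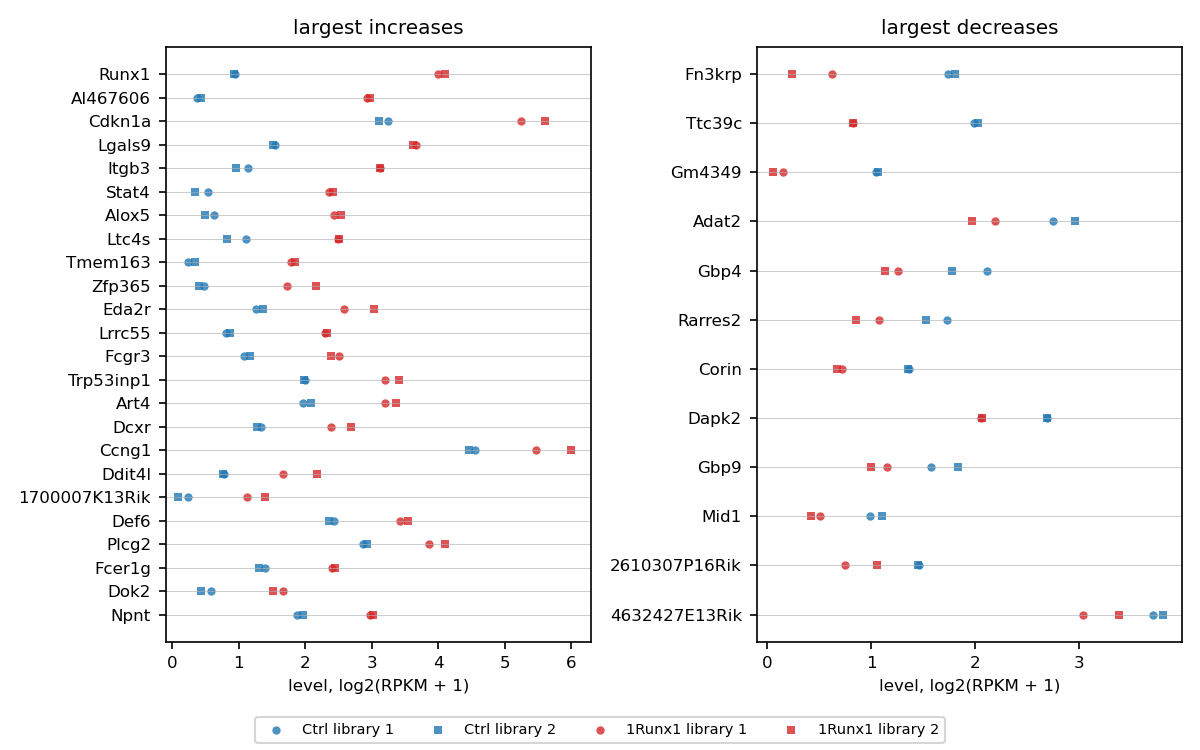
Levels on the log2(RPKM + 1) scale in each E9.5 library for Runx1 and the other largest increases (left) and the largest decreases (right), small RNA genes left out; Ctrl is blue, 1Runx1 red, circles are library 1 and squares library 2. In each gene both red symbols lie on the same side of both blue ones, as the choice of genes required.

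The same added copy was also measured at E13.5, in fetuses of the strain C57BL/6J-129Sv/J, in 2 1Runx1 libraries and a single Ctrl library (genotype CKI/CKI or CKI/+), and the difference between the stages was tested as an interaction in the same fit. The effect differed between the stages for 284 of 12546 genes (2.26%), 30 of them among the 149 called at E9.5. The total of 284 was 114 with only the E9.5 and E13.5 Ctrl and 1Runx1 libraries in the fit, 147 with a pseudocount of 0.1, 50 and 39 without E9.5 Ctrl library 1 or 2, 167 and 47 without E9.5 1Runx1 library 1 or 2, and 452 without E13.5 1Runx1 library 2. Strain and stage cannot be told apart in this comparison. The same holds for the gonadotrophin treatment, which is given for the E9.5 samples and not listed for those of E13.5. Of the 108 genes higher at E9.5, 95 had a positive difference at E13.5.

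These genes were chosen by their E9.5 difference, which the interaction subtracts, so the choice itself favours smaller effects at E13.5, and their number is no measure of a stage difference. With that limit, the values were lower at E13.5 for Alox5 (1.93 at E9.5 and 0.90 at E13.5), Trp53inp1 (1.32 and 0.33), Tmem163 (1.53 and 0.56), Fcgr3 (1.33 and 0.39), Itgb3 (2.08 and 1.30) and Lgals9 (2.11 and 1.38). The interaction of Alox5 was −1.02 ± 0.18 (limma, adjusted p = 0.0265) and that of Lgals9 −0.73 ± 0.10 (limma, adjusted p = 0.00678). Ttc39c and Gm4349, which fell by 1.18 and by 0.95 at E9.5, were at −0.36 and −0.01 at E13.5, with interactions of 0.81 ± 0.16 and 0.94 ± 0.16 (limma, adjusted p = 0.0379 and 0.0234). For Stat4, Ltc4s and Cdkn1a the interaction did not pass the test (limma, adjusted p = 0.806, 0.41 and 0.537). Of the 15 p53 target genes higher at E9.5, 14 had a positive difference at E13.5, 8 were called higher there, where 6.34% of all tested genes were called higher. The interaction passed the test for 1 of the 15, Trp53inp1. The median of the 27 p53 target genes was 0.31 at E13.5, against 0.02 over all tested genes.

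**Figure D3:**
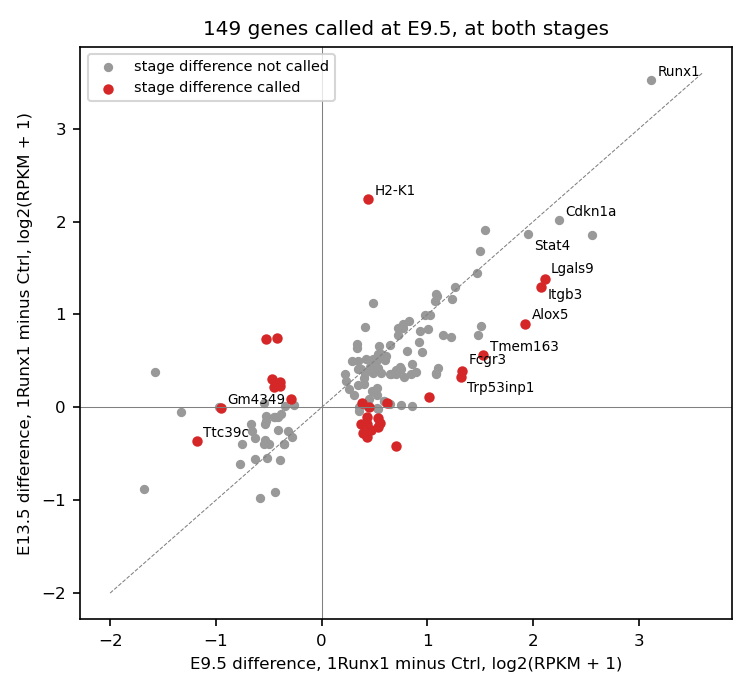
Difference between 1Runx1 and Ctrl on the log2(RPKM + 1) scale at E9.5 (horizontal) and E13.5 (vertical) for the 149 genes called at E9.5; red points are the 30 genes whose effect differed between the stages, and the dashed line marks equal effects. Alox5, Itgb3, Lgals9, Tmem163, Fcgr3 and Trp53inp1 lie below the line, and Runx1 and Cdkn1a lie near it.

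Open chromatin was compared between the authors' ATAC peak lists, 96532 peaks in 1Runx1 and 99298 in Ctrl, each made from both samples of a group, so that there is no check across replicates. A peak was called gained when it had no overlap of at least 1 bp in the Ctrl list, and lost when a Ctrl peak had none in the 1Runx1 list. By number, losses exceeded gains: 14896 peaks (15.4% of the 1Runx1 list) were gained and 17336 (17.5% of the Ctrl list) were lost. By strength the order turned. The median fold enrichment, as the authors' peak caller gave it, was 4.13 for gained and 3.83 for lost peaks, and 8279 gained against 6696 lost peaks had a −log10 q of at least 5. At a fold enrichment of at least 10, a limit chosen after the values were seen, there were 287 gained peaks and 13 lost peaks. Over the whole lists, the median fold enrichment was 7.15 in 1Runx1 and 6.37 in Ctrl, so the 1Runx1 list was also stronger in general. The depth of the ATAC libraries is not given in the peak lists.

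The strongest gained peaks were found again at E13.5 in the libraries with added Runx1 more often than in those without. Of the 287 gained peaks of at least 10-fold, 80.1% overlapped a peak of E13.5 1Runx1 and 81.5% one of E13.5 2Runx1, against 23.0% for E13.5 Ctrl. Their median width was 390 bp, and 4 of the 277 that could be placed lay within 1 kb of a listed gene start. Of them, 165 (57.5%) lay in the E13.5 1Runx1 list but not in that of E13.5 Ctrl, and 1 was found the other way round. Among all gained peaks these shares were 36.6% for E13.5 1Runx1, 28.4% for E13.5 2Runx1 and 26.8% for E13.5 Ctrl. Among all lost peaks they were 33.6%, 21.2% and 35.0%, and among shared peaks 85.1%, 78.6% and 84.4%. The 13 lost peaks of at least 10-fold had shares of 76.9%, 30.8% and 69.2%. The lists are of different lengths, and no test across samples can be made on them.

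**Figure D4:**
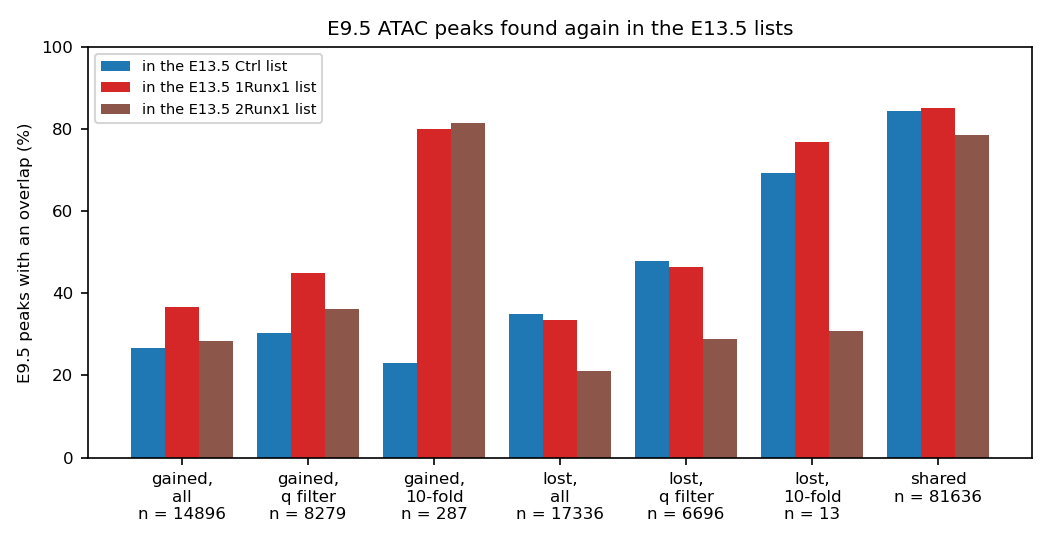
Percent of E9.5 ATAC peaks that overlap a peak of E13.5 Ctrl (blue), E13.5 1Runx1 (red) or E13.5 2Runx1 (brown), for gained, lost and shared peaks; q filter marks peaks with a −log10 q of at least 5, and 10-fold those with a fold enrichment of at least 10. The bars of the 287 strongest gained peaks stand at 80.1% and 81.5% for the Runx1 lists and at 23.0% for Ctrl.

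The gained peak with the highest fold enrichment (26.3) lay on chromosome 1, 79285257 to 79285565, 149 kb from the nearest protein-coding gene, Scg2. Of the 10 strongest gained peaks, those on chromosome 12, 51887665 to 51888175 and on chromosome 4, 107904283 to 107904622 lay inside Heatr5a and Cpt2, whose RNA did not pass the test (limma, adjusted p = 0.928 and 0.933). A gained peak of 21.4-fold lay inside Ptprc, on chromosome 1, 138136414 to 138136760, and was also present in the E13.5 lists of Ctrl, 1Runx1 and 2Runx1, whereas Ptprc RNA was listed at 0 in all 4 E9.5 libraries. The other peaks of the 10 had as nearest protein-coding genes Mterf1b, Egfem1, Cldn11, Rplp1, Zmat4 and Erich3, none of them called. The lost peak with the highest value (32.9-fold, chromosome 17, 50420091 to 50420193) was 103 bp wide and lay 88.7 kb from Plcl2. The next 4 lost peaks were 100 to 120 bp wide, with Epha6, Gm5141, Zfp697 and Cdh8 as nearest protein-coding genes.

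One gained peak of at least 10-fold lay within 25 kb of an end of a called gene: a peak of 14.8-fold inside Alox5, 5.20 kb downstream of its start, on chromosome 6, 116455798 to 116456243. It was present in the E13.5 lists of 1Runx1 and 2Runx1 and absent from that of E13.5 Ctrl. Alox5 also had a lost peak of 3.04-fold within 25 kb of its end. Stat4 had 4 gained and 0 lost peaks within that distance. Among them was a 6.78-fold peak (chromosome 1, 52011381 to 52011532) with the same pattern as the gained Alox5 peak in the 3 E13.5 lists. This Stat4 peak lay 3.25 kb downstream of the nearest listed start (52008240), and another start of the gene is listed further upstream, at 51987148. Among the p53 target genes, Cdkn1a had a gained peak of 6.59-fold 11.9 kb upstream of its start (chromosome 17, 29078917 to 29079142) and a lost peak of 3.84-fold 17.7 kb upstream, and Mdm2 had a gained peak of 7.76-fold inside the gene (chromosome 10, 117693510 to 117693776) and a lost peak of 5.26-fold outside it. Of the 3 E13.5 lists, those of Ctrl and 1Runx1 held the gained peak of Cdkn1a, and that of 1Runx1 alone held the 7.76-fold peak of Mdm2. Plcg2 had a gained peak of 7.38-fold 16.2 kb upstream and a lost peak of 3.6-fold beyond its far end. Genes that fell had gained peaks too, such as one of 9.90-fold near Rarres2, and Tek had 2 lost peaks and 0 gained ones.

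Gained and lost peaks were both found near many called genes. Of 107 higher genes with RefSeq coordinates, 60.7% had a gained and 58.9% a lost peak within 25 kb of an end, against 46.4% and 51.3% of 12493 tested genes and 51.2% and 41.5% of the 41 lower genes. Counting peaks with a −log10 q of at least 5, the shares were 46.7% gained and 21.5% lost for higher genes, 36.6% and 14.6% for lower genes, and 30.2% and 26.3% for tested genes. Genes share peaks, so no test was made across genes.

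Gained peaks also lay near genes of many lists, blood and other, whose RNA was low or did not pass the test. With a −log10 q of at least 5 and within 25 kb of a gene end, gained peaks were present at 18 of 27 hemogenic and stem-cell regulators, among them Gfi1, Gfi1b, Spi1, Myb and Lyl1, and lost peaks at 10. At 20 pan-haematopoietic genes the numbers were 12 (Ptprc, Vav1, Was, Itgb2 and Laptm5 among them) and 6, and at 18 erythroid genes 6 and 1. Over 21887 protein-coding RefSeq genes, 24.7% had such a gained and 21.3% such a lost peak. The share of gained peaks was as high in lists of other kinds, with 11 of 17 arterial genes (9 with lost peaks), 7 of 11 cardiomyocyte genes (4), 11 of 19 STAT and SOCS genes (9) and 13 of 23 endothelial junction genes (11). Endothelial identity genes had gained and lost peaks in near equal number, 14 and 16 of 30, and macrophage genes 4 and 6 of 20. Of the 27 p53 target genes, 9 had a gained and 4 a lost peak of this strength, and of 22 DNA replication genes 7 and 2.

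**Figure D5:**
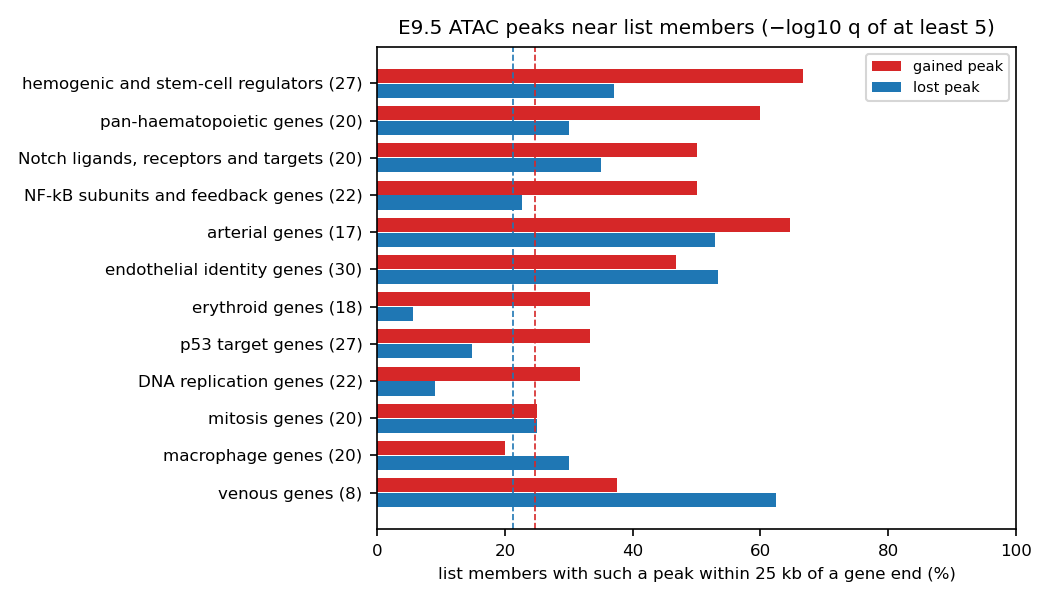
Percent of list members with a gained (red) or lost (blue) E9.5 ATAC peak of a −log10 q of at least 5 within 25 kb of a gene end; the number of genes is in parentheses, and dashed lines mark all protein-coding genes (24.7% and 21.3%). Gained peaks are above their line for hemogenic regulators (66.7%, lost 37.0%), pan-haematopoietic genes (60.0%, lost 30.0%) and endothelial identity genes (46.7%, lost 53.3%).

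RUNX proteins bind the hexamer TGTGGT, and it was searched on both strands in RefSeq promoters (GRCm38.p6, 300 bases from 250 before to 50 after each start). It was present in 27.4% of 252 promoters overlapped by a gained peak, 18.1% of 304 overlapped by a lost peak, 11.8% of 15185 with a peak in both lists, 21.1% of 16880 with a peak in neither and 16.8% of all 32851 promoters. With TGNGGT, which includes TGTGGT, the shares were 53.2%, 47.0%, 42.3%, 48.7% and 45.8% in these sets. AGGAAG, a motif of ETS factors, was in 53.2%, 44.4%, 32.6%, 37.5% and 35.4%, so it too was most frequent in promoters overlapped by a gained peak. AGATAA, a motif of GATA factors, was in 34, 24, 895, 2689 and 3672 promoters. TGANTCA (AP-1) was in 29, 25, 756, 1739 and 2565, and CACGTG (E-box) in 18, 31, 1515, 774 and 2349. By share, TGANTCA was also most frequent for a gained peak (11.5%), against 8.2% for a lost peak, 10.3% for neither list and 7.8% of all promoters. The share with AGATAA was higher for a gained peak than for a lost peak (7.9%) or a peak in both lists (5.9%). It was highest for a peak in neither list (15.9%). CACGTG was most frequent for a lost peak (10.2%, against 7.1% for a gained peak). The promoters also differed in base composition, with a median GC content of 51.0%, 52.3%, 61.7%, 47.0% and 52.7%, and the part of that difference in the motif shares was not tested. A match is a description of these letters, not a binding site.

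Lgals9 and Cyth4, encoding a cytohesin of blood cells, were the called genes whose listed promoter was overlapped by a gained peak, of 4.43-fold and 7.73-fold. Both of these peaks were present in the E13.5 lists of Ctrl, 1Runx1 and 2Runx1. Lgals9 also had lost peaks within 25 kb of an end, of 5.81-fold inside the gene and of 3.88-fold outside it. Cyth4 was at 3.40 and 3.22 RPKM in Ctrl and at 5.89 and 6.80 RPKM in 1Runx1, a rise of 0.77 (limma, adjusted p = 0.0138). Their promoters are shown together with those of AI467606, Ltc4s and Fcer1g. These additional promoters were picked from those that hold the hexamer and belong to genes with large increases. Others of this kind, such as those of Runx1, Dcxr and Ccng1, are not shown. The matches printed here thus support nothing about called genes in general. Capitals mark TGTGGT or its reverse complement ACCACA, and each sequence runs in the direction of transcription.
Lgals9 (chr11:78984875-78985174, minus strand): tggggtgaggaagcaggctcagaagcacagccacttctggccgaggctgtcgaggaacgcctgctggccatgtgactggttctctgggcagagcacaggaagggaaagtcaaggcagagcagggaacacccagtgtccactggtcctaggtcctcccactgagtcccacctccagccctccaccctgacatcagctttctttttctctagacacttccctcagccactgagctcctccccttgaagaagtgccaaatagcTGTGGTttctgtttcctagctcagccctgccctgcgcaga
Cyth4 (chr15:78596797-78597096, plus strand): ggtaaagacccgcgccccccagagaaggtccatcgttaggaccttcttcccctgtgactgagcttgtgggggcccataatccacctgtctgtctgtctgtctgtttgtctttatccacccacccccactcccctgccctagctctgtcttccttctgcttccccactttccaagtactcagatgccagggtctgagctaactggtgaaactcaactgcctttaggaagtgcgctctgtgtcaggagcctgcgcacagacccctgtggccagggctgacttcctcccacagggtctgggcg
AI467606 (chr7:127091186-127091485, plus strand): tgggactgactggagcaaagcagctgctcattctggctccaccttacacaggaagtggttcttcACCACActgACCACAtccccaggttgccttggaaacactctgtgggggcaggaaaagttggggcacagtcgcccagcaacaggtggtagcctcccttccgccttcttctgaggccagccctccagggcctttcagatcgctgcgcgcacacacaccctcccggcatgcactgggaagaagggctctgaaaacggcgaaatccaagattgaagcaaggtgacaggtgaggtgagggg
Ltc4s (chr11:50238483-50238782, minus strand): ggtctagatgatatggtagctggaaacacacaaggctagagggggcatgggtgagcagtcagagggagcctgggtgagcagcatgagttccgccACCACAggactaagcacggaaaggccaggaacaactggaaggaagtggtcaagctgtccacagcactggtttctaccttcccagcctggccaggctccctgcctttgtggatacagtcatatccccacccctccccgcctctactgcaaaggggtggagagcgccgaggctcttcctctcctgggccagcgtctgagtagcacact
Fcer1g (chr1:171234300-171234599, minus strand): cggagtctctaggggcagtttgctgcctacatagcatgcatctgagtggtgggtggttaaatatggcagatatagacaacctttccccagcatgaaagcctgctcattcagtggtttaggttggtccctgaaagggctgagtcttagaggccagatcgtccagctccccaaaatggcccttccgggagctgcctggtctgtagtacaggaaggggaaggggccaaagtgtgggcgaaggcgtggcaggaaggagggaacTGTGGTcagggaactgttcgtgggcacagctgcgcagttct

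In Lgals9 the match began 10 bases after the start, inside the gained peak (chromosome 11, 78984883 to 78985022). The Cyth4 window held no TGTGGT. AI467606, whose level went from 0.293 and 0.344 to 6.63 and 6.88 RPKM, had 2 matches, beginning 186 and 177 bases before the start, in a promoter with a peak in both lists. In Ltc4s the match began 156 bases before the start, also in a promoter with a peak in both lists. In Fcer1g it began 9 bases after the start, in a promoter with a peak in neither list.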

How the data were processed

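RNA-seq (Nextera XT libraries, which do not mark strand, paired reads of 150 bases) and ATAC-seq (50000 cells, paired reads of 75 bases) were made from sorted endothelial cells, per the labels' protocols. RNA levels are RPKM values deposited by the authors in 1 table. The submitters' processing notes name Trim Galore 0.6.4, STAR 2.7.3a, Subread 2.0.0 with featureCounts, and edgeR, and for other steps Bowtie2 2.3.5.1 and MACS2 2.1.4, on GRCm38 (mm10). The authors deposited 1 ATAC peak list per group, with the −log10 q and the fold enrichment of each peak as their peak caller gave them. How samples were combined before peak calling, and the settings, are not given in the sources used here.

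Whole reads were recovered from the steps of the RPKM values: 100% of 20720 genes with a value came out whole within 0.001 reads. The 12546 of 25239 genes that reached 1 RPKM in 2 or more of the 13 RNA libraries were tested with limma 3.58.1 (R 4.3.3) with a trended prior on log2(RPKM + 1), with 7 group means in 1 fit and Benjamini-Hochberg adjustment. Genes can pass this filter through E13.5 or liver libraries and be low at E9.5. Called means an adjusted p under 0.05, and values after ± are standard errors. A limma-voom fit on the recovered reads was an alternative. The code was checked on simulated data. Reads of near-identical copies (Rps3a1), multigene families, antisense and overlapping genes and small RNAs cannot be assigned with certainty.

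Gained and lost peaks were those with no overlap of 1 bp in the other list. Distances were taken from either end of the RefSeq gene (GRCm38.p6), since the promoter table lists starts for 78.5% of tested genes and 51.2% of lower genes. No genome sequence was used, so motifs were counted in 300-base promoters and not at peak summits, and shares among called genes are not given.

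Genes named are Runx1, the 25 largest increases and 15 largest decreases among called genes whose groups did not overlap, called members of the lists, and for lists with none up to 2 members of smallest p; other genes were named after their values were seen. The members and the gene lists were chosen with earlier results of these data known. Replicate numbers were not used as pairs: the deviations of same-numbered E9.5 libraries from their group means correlated at −0.061, over 2 pairs.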

Additional observations from a re-analysis of the deposited data

Results flagged for a closer look

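The effect of 1 added Runx1 copy differed between E13.5 and E9.5 by the interaction test (limma, adjusted over all tested genes) for 11 of the 65 named genes. Most of these genes were chosen by their E9.5 effect, which the interaction subtracts, so the choice itself favours negative values for genes that rose and positive ones for genes that fell, and the number is not to be read against the 2.26% of all tested genes. The interaction is the E13.5 effect minus the E9.5 effect on the log2(RPKM + 1) scale, and it rests on a single E13.5 Ctrl library.

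It was negative for 8 genes. The values were −1.02 ± 0.18 for Alox5 (adjusted p = 0.0265), −0.99 ± 0.18 for Trp53inp1 (0.0279), −0.97 ± 0.21 for Tmem163 (0.044) and −0.94 ± 0.18 for Fcgr3 (0.0298). They were −0.78 ± 0.17 for Itgb3 (0.0467), −0.74 ± 0.16 for the lysozyme gene Lyz2 (0.0469), −0.73 ± 0.10 for Lgals9 (0.00678) and −0.58 ± 0.11 for Egln3 (0.0331). The effect of Lyz2 was 0.54 at E9.5 and −0.21 at E13.5, and that of Egln3 0.62 and 0.04.

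It was positive for 3 genes, at 0.94 ± 0.16 for Gm4349 (adjusted p = 0.0234), 0.81 ± 0.16 for Ttc39c (0.0379) and 0.77 ± 0.13 for Tlr2 (0.0234). Tlr2, a pattern recognition receptor, was lower in 1Runx1 at E9.5 (−0.47), and its effect at E13.5 was 0.30.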

How the results depend on the processing

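Of 149 genes called (108 higher, 41 lower), 37 (29 and 8) were called with only the E9.5 libraries in the fit, and 41 to 89 (37 to 66 higher, 4 to 23 lower) with 1 E9.5 library left out. Quantile normalization, limma-voom, a pseudocount of 0.1, no filter and a filter on the E9.5 libraries gave 128, 138, 141, 106 and 165. With the replicate block, 131 were called, and the interaction count was 294. The 284 interaction calls became 147 with a pseudocount of 0.1, 114 with only the E9.5 and E13.5 Ctrl and 1Runx1 libraries, and 39 to 452 with 1 library left out. Of 713 values of named genes under alternatives, 474 kept their call, 239 lost it and 0 turned direction.

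Gained and lost peaks numbered 8279 and 6696 at a −log10 q of at least 5, 19196 and 21556 where at least 50% of a peak had to be covered, and 287 and 13 at a fold enrichment of at least 10. The share of gained-peak promoters with the motif, 27.4%, was 53.2% with TGNGGT, 23.1% with 50% coverage and 32.3% with the q limit. The share of higher genes with a gained peak, 60.7%, was 70.1% with 50% coverage, 46.7% with the q limit, 23.4% within 5 kb and 86.0% within 100 kb, and that of lower genes, 51.2%, was 17.1% within 5 kb and 75.6% within 100 kb. The cause of these differences was not tested, apart from the wider or narrower distances themselves. The fold limit, distances from either gene end and the use of promoters were chosen after seeing the data, and motif windows around peak summits were not run.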

Other observations

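Other genes, named after their values were seen, were also called with each E9.5 library left out. Rab35, a small GTPase of endosomes, was at 15.1 and 14.1 RPKM in Ctrl and at 30.8 and 30.2 RPKM in 1Runx1, a rise of 1.02 (limma, adjusted p = 0.000372). Rps3a1, a ribosomal protein gene with near-identical copies in the genome, was at 268 and 265 RPKM in Ctrl and at 455 and 417 RPKM in 1Runx1, a rise of 0.71 (limma, adjusted p = 0.000365). In both genes the groups lay apart, as in every called gene. Trf, which encodes the iron carrier transferrin, rose by 0.81 ± 0.07 (limma, adjusted p = 0.000315), from 17.6 and 18.5 to 30.7 and 34.0 RPKM. It was the only called gene of 11 tested hepatoblast and yolk sac endoderm genes. It was also the only member that passed a filter on the E9.5 libraries alone, so the test says little about the others.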
